A study of Mus musculus with 11 samples.

Results

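Aminoacyl-tRNA synthetases are the enzymes that attach each amino acid to its transfer RNA, and 35 of their genes were followed here in hippocampal CA1 of CamkdeltaC transgenic and control mice. The members were given by a list of gene symbols (GENCODE M21), a rule that contains no measured value, and all 35 were protein-coding genes present in every library, out of 48709 genes in the deposited counts. Of these, 17 encode cytosolic enzymes, 16 encode mitochondrial enzymes, and 2 (Gars and Kars) encode both forms from 1 gene. Other synthetase genes were not analysed here. The study compared 6 libraries from mice carrying a CamkdeltaC transgene, a splice form of calcium/calmodulin-dependent protein kinase II delta, with 5 libraries from littermates. All mice were 3 months old, both sexes were used without being given per library, and neither group had any other stated allele or treatment. In the published mouse line of this name the transgene is driven by a heart-muscle myosin promoter and the mice develop heart failure, but the labels give neither the promoter nor the number of founder lines. The labels also do not say that the libraries came from separate animals, so the p-values below rest on differences among these samples that could be technical.

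A cytosolic synthetase feeds the ribosomes that translate nuclear messages, whereas a mitochondrial synthetase, made from a nuclear gene and imported, charges the transfer RNAs that the mitochondrial genome encodes. Several cytosolic enzymes sit together with 3 scaffold proteins in the multisynthetase complex. Uncharged transfer RNA in the cytosol activates the kinase Gcn2 (Eif2ak4), which phosphorylates eIF2 alpha and raises translation of the transcription factor ATF4. ATF4 in turn binds a composite C/EBP-ATF element upstream of many amino acid synthesis genes and many cytosolic synthetase genes. In neurons, dominant changes in several of these enzymes, glycyl-tRNA synthetase among them, cause inherited peripheral neuropathy, and loss of mitochondrial synthetases causes brain and heart disease.

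The ATF4 element is shown first because it is a feature of the genes and does not rest on their values. The later comparison among cytosolic enzymes uses a list of ATF4 targets, not the element itself. The letters TTGCATCA, or TGATGCAA on the other strand (the same site read from the opposite strand), were searched in RefSeq promoter sequences of 300 bases (250 before to 50 after each gene's start, GRCm38.p6). Of the 35 members, 26 had a promoter in this table, and 4 of these 26 (15.4%) held the element, against 279 of 27025 promoters of all genes (1.03%). All 4 belonged to the 7 synthetases with a promoter sequence that had been listed as ATF4 targets (57.1% of the 7). That list rests in part on earlier knowledge of this element, so the share is not independent of it, and a match is a description of letters, not evidence of binding. The windows of 30 bases around the element of 3 of these genes are printed 5′ to 3′ on the gene's strand, with the element in capitals.
Iars (isoleucyl-tRNA synthetase), chr13:49682126-49682155, plus strand, element from base 8: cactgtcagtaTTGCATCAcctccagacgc
Tars (threonyl-tRNA synthetase), chr15:11399655-11399684, minus strand, element from base -15: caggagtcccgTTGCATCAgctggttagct
Yars (tyrosyl-tRNA synthetase), chr4:129189895-129189924, plus strand, element from base 4: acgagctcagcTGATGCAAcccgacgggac
Positions are counted from the gene's start in that table, with negative values before it. The element thus lay before the start in Tars and just after it in Iars and Yars.

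RNA was polyA-selected and sequenced as single reads of 50 bases from a kit that does not mark strand. Libraries held 14263784 to 36898689 counted reads, of which the 17293 genes tested held 99.9%, and control 5 was the shallowest. The CA1 label matched its markers: the 8 CA1 pyramidal markers summed to 1338 to 1718 CPM (a gene's counts relative to its library's TMM-scaled total) in transgenic and 1246 to 1518 CPM in control libraries, with none called. Markers of dentate granule cells (69.9 to 179 against 85.7 to 230 CPM), CA3 and CA2 (432 to 705 against 514 to 734 CPM) and oligodendrocytes (3279 to 5693 against 2733 to 4669 CPM) overlapped between the groups, with none called. Microglial markers summed to 229 to 302 against 207 to 255 CPM, with 2 of 6 called higher, and astrocyte markers to 1402 to 1788 against 1374 to 1755 CPM, with 1 of 5 called higher; none of these was called once a GC trend described below was removed. Heart muscle markers were near the floor in both groups (12.1 to 16.5 against 11.7 to 15.9 CPM), with Nppa and Mybpc3 at 0 in at least 1 library. Endothelial markers summed to 92.1 to 122 against 97.1 to 138 CPM, and choroid plexus markers to 8.52 to 18.6 against 6.996 to 43.1 CPM, with Kcnj13 at 0 in at least 1 library. Camk2d, the gene of the transgene's kinase, ranged from 40.4 to 132 CPM in transgenic and from 53.7 to 94.3 CPM in control libraries, with a log2 fold change of -0.08 (SE 0.29, edgeR adjusted p = 0.873), so its CA1 level does not check the labels. The part of cell composition in the results below was not tested, and in dissected tissue fewer cells of a type and less RNA per cell cannot be told apart.

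All 35 synthetases were expressed in CA1. The lowest count in any library was 134 reads, for Pars2 (mitochondrial prolyl-tRNA synthetase), and the highest was 6628, for Nars (cytosolic asparaginyl-tRNA synthetase). All 35 therefore passed the low-count filter. Levels were compared between genes as CPM per kilobase of merged annotated exon, a scale on which a gene with long, rarely used exons is set too low. In control libraries Nars was the most abundant cytosolic member at 40.1 ± 1.02 CPM per kilobase (SD, n = 5), followed by Hars (histidyl) at 34.7 ± 1.06, Sars (seryl) at 30.6 ± 1.71 and Wars (tryptophanyl) at 30.2 ± 0.748. Sars and Wars lay within their spread of each other. The bifunctional Gars (glycyl) stood at 34.5 ± 1.58 CPM per kilobase, level with Hars within the spread, and Kars (lysyl) at 14.2 ± 0.556. Cars (cysteinyl) was the least abundant cytosolic member at 6.14 ± 0.269 CPM per kilobase, not separated by its spread from Eprs (the fused glutamyl-prolyl enzyme) at 6.32 ± 0.213 or Tars at 6.44 ± 0.492. Mitochondrial members ran lower, from Aars2 (alanyl) at 8.40 ± 0.632 CPM per kilobase and Hars2 (histidyl) at 7.90 ± 0.283 down to Cars2 (cysteinyl) at 2.15 ± 0.222 and Ears2 (glutamyl) at 1.94 ± 0.141. In the plot of control levels the compartments overlap only between the lower cytosolic and the upper mitochondrial members.

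**Figure D1:**
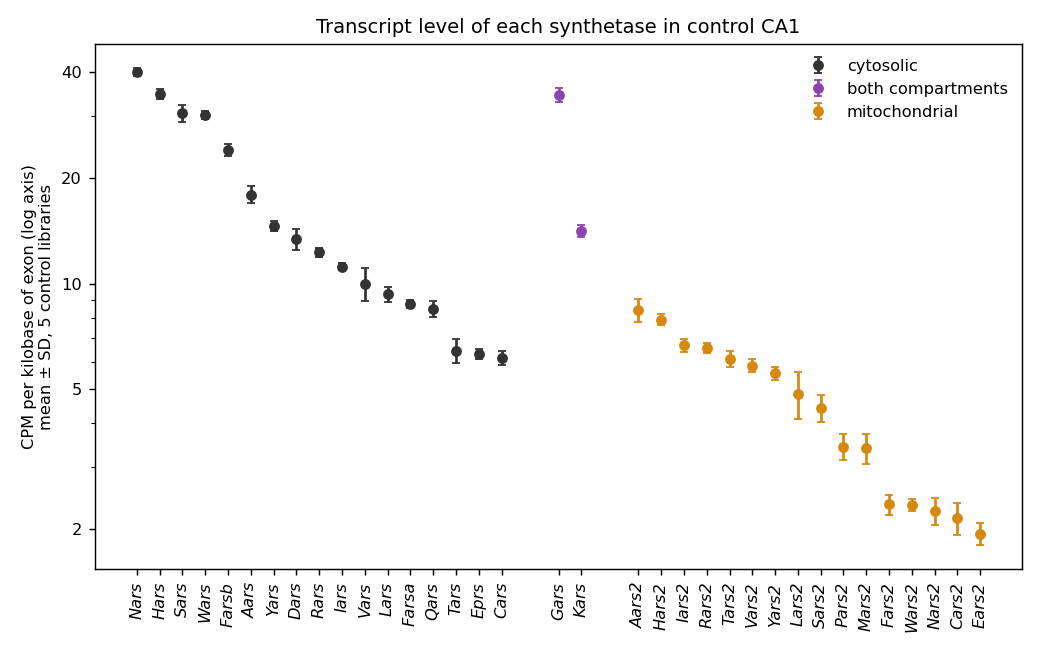
Level of each synthetase transcript in the 5 control libraries, as CPM per kilobase of merged exon on a log axis (points, mean; bars, SD), ordered within each compartment. Nars stands highest at 40.1 and Ears2 lowest at 1.94, and the mitochondrial members lie at or below 8.40.

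For 14 amino acids a cytosolic and a mitochondrial enzyme from separate member genes were compared as pairs within each library. Eprs, the fused enzyme, was paired only with Ears2 for glutamate, so proline (Eprs and Pars2) was left out. The cytosolic transcript was the more abundant per kilobase in all 11 libraries for 12 of the 14 pairs. The ratio was widest for asparagine, with Nars at 17.9 ± 1.67 times Nars2 in control (SD, n = 5) and 20.2 ± 0.781 times in transgenic libraries (SD, n = 6). Tryptophan followed, with Wars at 12.9 ± 0.598 times Wars2 in control and 15.0 ± 1.14 times in transgenic libraries. Serine had a ratio of Sars to Sars2 of 6.94 ± 0.600 in control and 6.57 ± 0.340 in transgenic libraries, and isoleucine one of Iars to Iars2 of 1.68 ± 0.0831 and 1.653 ± 0.0632. The exceptions were threonine and leucine. Tars and Tars2 were nearly level, at 1.06 ± 0.0916 in control and 1.002 ± 0.0559 in transgenic libraries, with Tars ahead in 6 of 11. The leucine ratio of Lars to Lars2 was 1.97 ± 0.400 (1.48 to 2.57) in control libraries and 0.931 ± 0.437 (0.443 to 1.68) in transgenic libraries, with Lars ahead in 7 of 11. These ratios are given without a test. They rest on the counts as deposited, and paired genes can differ in GC content (Wars 53.4%, Wars2 46.5%). With a GC trend described below removed, log2 fold changes (transgenic over control) were 0.02 for Wars and -0.02 for Wars2, in place of 0.12 and -0.09. For Nars and Nars2 they were 0.01 and -0.10, in place of -0.04 and -0.23.

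The members that were most and least abundant per kilobase of each compartment in control libraries had overlapping levels in the 2 groups. In transgenic libraries the mean of Lars2, at 12.2 CPM per kilobase, was above that of Aars2, at 9.34, and Lars2 is described below. Nars measured 166, 161, 168, 168, 175 and 180 CPM in transgenic libraries 1 to 6 and 168, 176, 180, 176 and 173 CPM in control libraries 1 to 5. Cars measured 40.9, 43.6, 39.5, 42.0, 42.3 and 42.7 CPM against 40.2, 43.2, 39.6, 38.5 and 40.7 CPM. The groups overlapped throughout for both, with log2 fold changes of -0.04 (SE 0.04, edgeR adjusted p = 0.537) and 0.05 (SE 0.05, edgeR adjusted p = 0.484). Aars2 measured 47.0, 48.3, 44.1, 41.6, 46.2 and 39.8 CPM in transgenic and 41.4, 44.1, 39.1, 35.8 and 39.8 CPM in control libraries, with overlapping groups and a log2 fold change of 0.15 (SE 0.07, edgeR adjusted p = 0.118). Ears2 measured 10.6, 11.2, 9.63, 10.2, 10.5 and 9.59 CPM against 10.1, 9.66, 9.17, 9.99 and 11.1 CPM, again overlapping (log2 fold change 0.04, SE 0.07, edgeR adjusted p = 0.702). Gars, counted with both compartments, measured 104 to 115 CPM in transgenic and 102 to 111 CPM in control libraries (log2 fold change 0.04, SE 0.05, edgeR adjusted p = 0.63), and Kars 61.0 to 76.0 against 59.9 to 66.4 CPM (0.13, SE 0.06, edgeR adjusted p = 0.119).

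Few synthetases passed the test between transgenic and control libraries, a share near that of all genes. In edgeR's quasi-likelihood test with Benjamini-Hochberg adjustment over all 17293 genes, 7 of the 35 members (20%) passed an adjusted p of 0.05, against 17.9% of all genes tested. Of the 19 cytosolic and bifunctional members, Aars and Sars were higher in transgenic libraries, Dars was lower and 16 did not pass (15.8% passed). Of the 16 mitochondrial members, Lars2, Fars2 and Sars2 were higher, Mars2 was lower and 12 did not pass (25% passed). Among all genes, 7.41% were called higher and 10.5% lower. The median log2 fold change was 0.05 over the cytosolic and bifunctional members (15 positive, 4 negative), 0.03 over the mitochondrial members (10 positive, 6 negative) and 0.01 over all genes tested. The summed level of the cytosolic and bifunctional members was 1644 ± 49.1 CPM (SD, n = 6) in transgenic and 1559 ± 31.7 CPM (SD, n = 5) in control libraries, with ranges of 1569 to 1694 and 1529 to 1603 CPM that overlap. The mitochondrial members summed to 509 ± 66.4 against 429 ± 9.04 CPM, and without Lars2 to 374 ± 7.27 against 376 ± 8.10 CPM, so that Lars2 alone carried the difference between those sums.

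The libraries differed in how read counts followed GC content, and this bears on every call. Across genes, log2 CPM changed with each 10 percentage points of transcript GC by 0.27, 0.26, 0.18, 0.10, 0.02 and -0.06 in transgenic libraries 1 to 6 and by -0.12, -0.06, -0.20, -0.22 and -0.16 in control libraries 1 to 5. All transgenic slopes were thus above all control slopes, with transgenic 6 only just above control 2. With each library's GC trend removed, 200 genes (1.16%) were higher and 142 (0.821%) lower in place of 1282 and 1812, and 1 of 35 members, Lars2, was called, against 1.98% of all genes. The median log2 fold change was then 0.07 over the cytosolic and bifunctional members, 0.01 over the mitochondrial members and -0.0028 over all genes. At an unadjusted p under 0.05 edgeR counted 8 of 35 members and 3143 of 17293 genes with the trend removed, and 18 members and 5996 genes without that step. Slope and genotype moved together in these libraries, and whether the slope is technical was not tested.

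**Figure D2:**
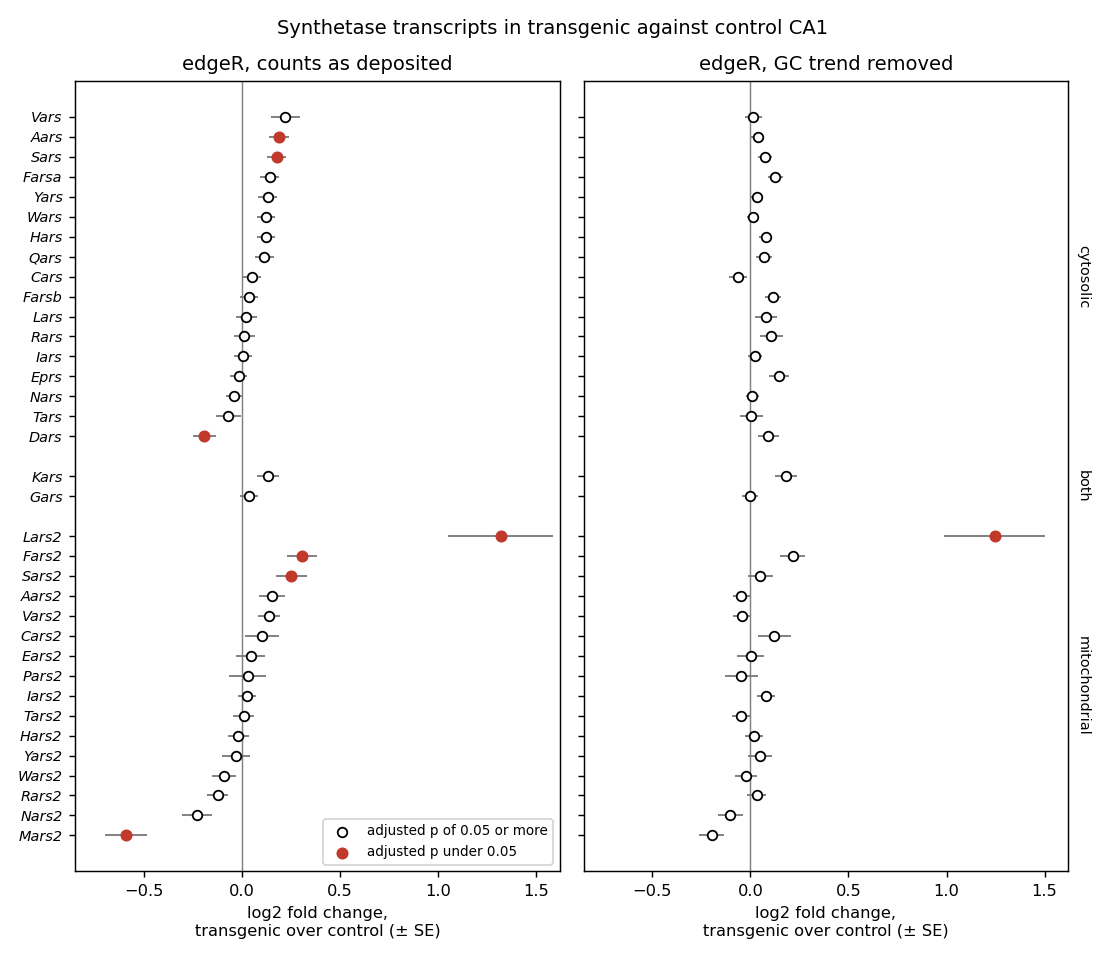
Log2 fold change (transgenic over control, points, with SE bars) of the 35 synthetases in the edgeR fit of the counts as deposited (left) and with each library's GC trend removed (right), filled where the adjusted p was under 0.05. On the left 7 members are filled, on the right Lars2 alone, at 1.25.

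The members' own fold changes followed their GC content. None of the 5 members under 45% GC had a positive log2 fold change (median -0.19, 2 called lower), against a median of -0.25 over the 4470 tested genes in that band. The 13 members of 45 to 50% GC were split, with 8 positive, 5 negative, none called and a median of 0.01, against -0.04 over 4542 genes. All 12 members of 50 to 55% GC were positive (median 0.12, 3 called higher) against 0.09 over 4440 genes. All 5 members of 55% GC and over were positive too (median 0.19, 2 called higher) against 0.18 over 3794 genes. In the plot against GC content the members lie along the curve of all genes on the left and near 0 on the right, with Lars2 far above it in both panels.

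**Figure D3:**
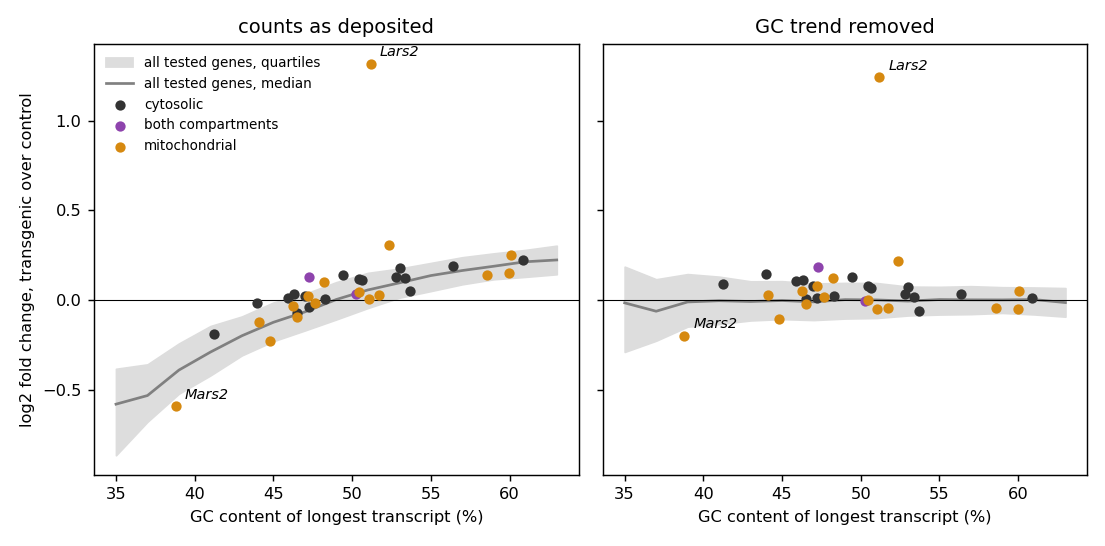
Log2 fold change (transgenic over control) of each synthetase against the GC content of its longest transcript, in the fit of the counts as deposited (left) and with each library's GC trend removed (right); line and band, median and quartiles of all tested genes in GC bins. Lars2 (51.2% GC) stands at 1.32 on the left and 1.25 on the right, and Mars2 (38.8% GC) at -0.59 and -0.20.

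Among cytosolic enzymes, Aars and Sars were modestly higher and Dars modestly lower, each overlapping between the groups. Aars (ENSMUSG00000031960, chr8:111033144-111057664 in mm10) charges alanine and measured 194, 200, 194, 194, 180 and 176 CPM in transgenic libraries 1 to 6 and 166, 181, 166, 157 and 163 CPM in control libraries 1 to 5. The 4 highest transgenic libraries lay above all control libraries, and control 2 reached into the transgenic range. Its log2 fold change was 0.19 (SE 0.05, edgeR adjusted p = 0.027), and 0.04 with the GC trend removed (edgeR adjusted p = 0.637). Sars (ENSMUSG00000068739, chr3:108424865-108445209) charges serine, and also the transfer RNA on which selenocysteine is made. It measured 189, 180, 179, 182, 170 and 167 CPM in transgenic and 150.3, 172, 159.5, 153 and 152 CPM in control libraries, where again only control 2 lay within the transgenic range. Its log2 fold change was 0.18 (SE 0.05, edgeR adjusted p = 0.032), and 0.08 with the GC trend removed (edgeR adjusted p = 0.31).

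Dars (ENSMUSG00000026356, chr1:128363707-128417368), the aspartyl enzyme and a subunit of the multisynthetase complex, measured 46.6, 49.0, 53.0, 52.7, 53.9 and 51.3 CPM in transgenic and 56.5, 53.4, 61.7, 63.3 and 56.4 CPM in control libraries. Only transgenic 5, at 53.9 CPM, exceeded the lowest control library. Its log2 fold change was -0.19 (SE 0.06, edgeR adjusted p = 0.0371) on the counts as deposited and 0.09 (edgeR adjusted p = 0.394) with the GC trend removed, so the direction depended on that step; Dars has 41.2% GC. The calls of these cytosolic genes also depended on single libraries. Aars kept its call in 4 of the 11 fits that left out 1 library and lost it without transgenic 1, 2 or 3 or control 1, 3, 4 or 5 (edgeR adjusted p 0.0542 to 0.074, log2 fold change 0.17 to 0.19). Sars and Dars kept theirs in 3 of 11 and lost them without those libraries or transgenic 4 (edgeR adjusted p 0.0524 to 0.079 and 0.0557 to 0.0965). Without transgenic 6, 8 cytosolic members were called higher, beside 2132 of all genes, and without each of 7 other libraries none was, beside 361 to 594 of all genes. Exons of Aars share 1326 bases with Exosc6 on the same strand, so reads there could belong to either gene.

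The other 16 cytosolic and bifunctional members did not pass, with log2 fold changes from -0.07 (Tars) to 0.22 (Vars, the valyl enzyme, SE 0.08, edgeR adjusted p = 0.057). Farsa, the alpha subunit of the phenylalanyl enzyme, came nearest with 0.14 (SE 0.05, edgeR adjusted p = 0.0512), while Farsb, its partner beta subunit, had 0.04 (SE 0.05, edgeR adjusted p = 0.601). Yars had 0.13 (edgeR adjusted p = 0.0716), Hars 0.12 (0.0798) and Wars 0.12 (0.0835). Qars, Cars, Lars, Rars, Iars, Eprs and Nars lay between -0.04 and 0.11. None of the 19 had separate groups.

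Among mitochondrial enzymes, Mars2 was lower and Fars2 and Sars2 were higher, beside Lars2. Mars2 (ENSMUSG00000046994, chr1:55237177-55248470), the mitochondrial methionyl enzyme, charges the single methionine transfer RNA that serves both initiation and elongation in mitochondria. It measured 21.4, 21.6, 25.7, 22.8, 28.7 and 32.1 CPM in transgenic and 38.9, 33.9, 37.1, 38.0 and 44.0 CPM in control libraries. The groups did not overlap. Mean levels were 25.4 ± 4.31 CPM (SD, n = 6) and 38.4 ± 3.66 CPM (SD, n = 5), with a log2 fold change of -0.59 (SE 0.11, edgeR adjusted p = 0.0111). Mars2 kept this call in all 11 fits that left out 1 library, with log2 fold changes from -0.67 to -0.54. With the GC trend removed the libraries stood at 28.3, 28.1, 30.8, 25.5, 28.8 and 29.3 against 34.96, 31.0, 30.3, 30.8 and 36.7 CPM, and the log2 fold change was -0.20 (SE 0.06, edgeR adjusted p = 0.11). Transgenic 3 then lay within the control range. Mars2 had the lowest GC content of the members, at 38.8%.

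Fars2 (ENSMUSG00000021420, chr13:36117412-36726280), the mitochondrial phenylalanyl enzyme, measured 18.5, 18.2, 16.99, 16.8, 15.8 and 14.2 CPM in transgenic and 13.1, 13.5, 12.8, 15.0 and 13.2 CPM in control libraries. Only transgenic 6 and control 4 crossed. Its log2 fold change was 0.31 (SE 0.08, edgeR adjusted p = 0.0217), and 0.22 with the GC trend removed (SE 0.06, edgeR adjusted p = 0.0907). Its call was lost without transgenic 2 or control 1, 3 or 5 (edgeR adjusted p 0.0503 to 0.0537, log2 fold change 0.28 to 0.30). Fars2 exons overlap Nrn1 by 501 bases and Lyrm4 by 115 bases on the opposite strand, and without strand in the kit reads there cannot be told apart.

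Sars2 (ENSMUSG00000070699, chr7:28741992-28753871), the mitochondrial seryl enzyme, measured 18.4, 18.5, 17.8, 19.0, 15.5 and 15.8 CPM in transgenic and 15.8, 16.2, 13.2, 14.5 and 13.7 CPM in control libraries. Transgenic 1 to 4 lay above all control libraries, and transgenic 5 and 6 within the control range. Its log2 fold change was 0.25 (SE 0.08, edgeR adjusted p = 0.0447), and 0.05 with the GC trend removed (edgeR adjusted p = 0.721). The call was kept in 3 of 11 fits and lost without any of transgenic 1 to 4 or control 1, 3, 4 or 5 (edgeR adjusted p 0.058 to 0.102).

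**Figure D4:**
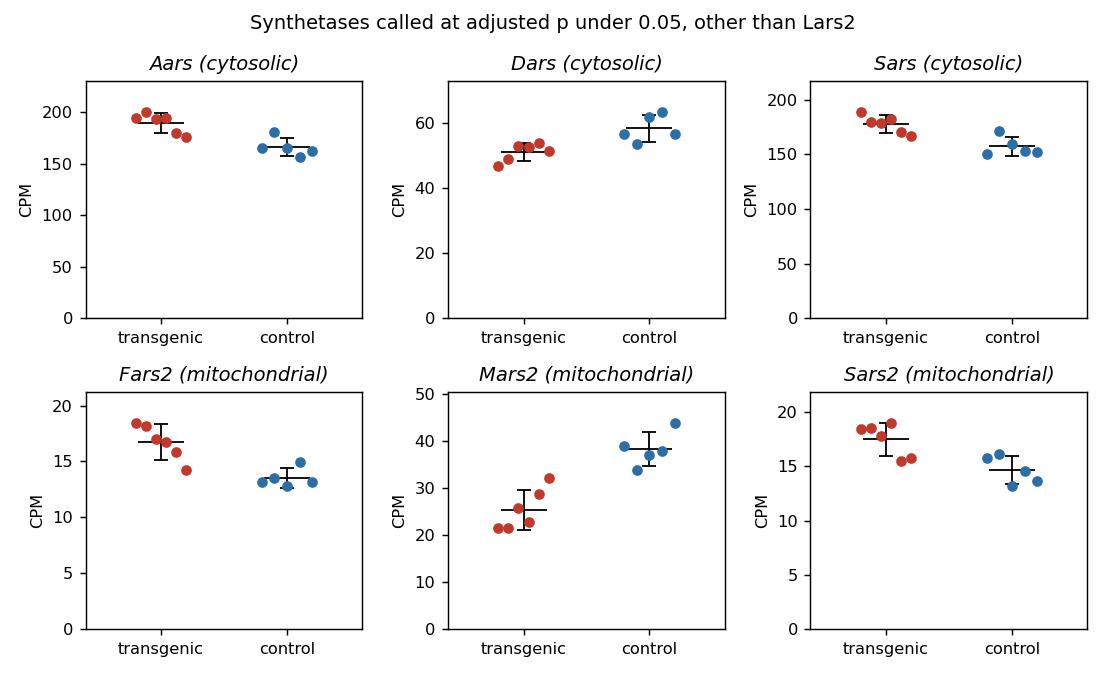
CPM of the 6 called synthetases other than Lars2 in each library (points; horizontal lines and bars, mean ± SD; transgenic, n = 6; control, n = 5; y axes start at 0). Mars2 alone has separate groups, 21.4 to 32.1 CPM in transgenic and 33.9 to 44.0 CPM in control libraries.

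The other 12 mitochondrial members did not pass, with log2 fold changes from -0.23 (Nars2, asparaginyl, SE 0.08, edgeR adjusted p = 0.0508) to 0.15 (Aars2). Vars2 had 0.14 (edgeR adjusted p = 0.0955), Cars2 0.10 (0.418) and Wars2 -0.09 (0.299). Iars2, Pars2, Tars2, Hars2, Yars2 and Ears2 lay between -0.03 and 0.04. Rars2, the mitochondrial arginyl enzyme, measured 16.4, 16.8, 16.4, 17.1, 16.2 and 17.4 CPM in transgenic and 17.8, 17.5, 18.8, 18.9 and 17.9 CPM in control libraries. Its groups did not overlap, though by a margin small beside their spread, and the log2 fold change of -0.12 (SE 0.05) did not pass (edgeR adjusted p = 0.115). Mars2 and Rars2 were the members with separate groups, both lower in transgenic libraries, and no member was separate in the other direction. Among all tested genes 4.73% were separate and lower and 3.04% separate and higher. Nars2, Cars2, Vars2, Iars2 and Ears2, as well as Hars and Hars2 with each other, share exon bases with a gene on the opposite strand, and their counts carry the same limit as those of Fars2. The same holds for the cytosolic Farsb (248 bases), Cars (211), Aars (77) and Yars (30).

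Lars2 was the largest change of the 35. Lars2 (ENSMUSG00000035202, chr9:123366927-123462666), the mitochondrial leucyl enzyme, measured 156, 232, 146, 131, 84.4 and 60.1 CPM in transgenic libraries 1 to 6 and 50.3, 55.4, 55.6, 65.2 and 43.0 CPM in control libraries 1 to 5. The means were 135 ± 60.2 CPM (SD, n = 6) and 53.9 ± 8.11 CPM (SD, n = 5). Transgenic 1 to 5 lay above every control library, and transgenic 6 lay within the control range. The log2 fold change was 1.32 (SE 0.27, edgeR adjusted p = 0.0125) and kept its call in all 11 fits that left out 1 library (1.10 to 1.47). With the GC trend removed it was 1.25 (SE 0.26, edgeR adjusted p = 0.0355). That call was lost in 8 of 11 fits, without any of transgenic 1 to 4 or control 1, 3, 4 or 5 (edgeR adjusted p 0.0611 to 0.107, log2 fold change 1.03 to 1.32), in each of which no gene of the 17293 was called. Lars, its cytosolic counterpart, measured 54.6, 49.6, 49.1, 55.9, 47.7 and 48.8 CPM in transgenic and 50.9, 50.5, 49.3, 46.7 and 53.5 CPM in control libraries (log2 fold change 0.02, SE 0.06, edgeR adjusted p = 0.803).

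The Lars2 transcript carries a stretch also found in the transcript of an rRNA-like locus, and transcripts of such loci moved with it. The transcripts of the 35 members (286 in all) were compared by blastn (E value of at most 1e-05) with a list of rRNA-like loci, meaning annotated genes that hold ribosomal RNA sequence. Lars2 was the only member with a match, 72 bases at 98.6% identity with 1 mismatch to Gm15564, a non-coding gene on chromosome 16. Of the 8 listed loci 6 were among the deposited genes, without Rn45s and Rn18s-rs5. Likeness of any member to rRNA sequence beyond the listed transcripts was not tested. The match lies at chr9:123462048-123462119 (mm10), in the 3′ untranslated part of the last of 21 exons, and its longest identical run is 52 bases, longer than a read of 50. In Gm15564 the matched bases span chr16:35981725-35983052, more than 72 bases, so there the match joins separate exons. The identity therefore holds between spliced transcripts, and where reads of the run were placed in the genome was not tested. The first 30 bases of the identical run are shown because a read lying wholly within the run has the same letters in both spliced transcripts.
Lars2 and Gm15564 shared bases: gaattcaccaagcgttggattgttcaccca

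Gm15564 itself measured 34.3, 49.0, 27.1, 31.7, 15.8 and 10.7 CPM in transgenic and 6.93, 8.57, 9.28, 11.8 and 6.38 CPM in control libraries (log2 fold change 1.69, SE 0.33, edgeR adjusted p = 0.0119). CT010467.1, on chromosome 17, measured 597, 838, 389, 408, 175 and 117 CPM against 112, 101, 106, 116 and 86.2 CPM (2.01, SE 0.40, edgeR adjusted p = 0.0123), and its groups did not overlap. Mir6236, annotated as a microRNA, measured 54.4, 66.4, 33.7, 32.5, 17.01 and 10.8 CPM against 5.96, 8.84, 7.46, 9.38 and 5.68 CPM (2.24, SE 0.40, edgeR adjusted p = 0.0111), also without overlap. Gm26917 measured 31.5, 41.1, 20.1, 21.9, 14.6 and 11.8 CPM against 7.62, 12.1, 8.36, 11.7 and 7.92 CPM (1.29, SE 0.28, edgeR adjusted p = 0.0144). All 4 rRNA-like loci that were tested, of 8 listed, were thus called higher, and with the GC trend removed 3 of the 4 still were (Gm26917 had 0.93, edgeR adjusted p = 0.073). Gm26917 (chr17:39843013-39846341) lies directly beside CT010467.1 (chr17:39846353-39848827), so the 4 are not all separate sites. Exons of CT010467.1 also overlap those of the listed Gm42418 and AY036118, which had 0 reads in every library.

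From highest to lowest, the transgenic libraries stood in the order 2, 1, 3, 4, 5, 6 for Lars2 and for Mir6236, and 2, 1, 4, 3, 5, 6 for the other 3 loci. The control libraries stood in the order 4, 3, 2, 1, 5 for both Lars2 and Gm15564, but 4, 1, 3, 2, 5 for CT010467.1, 4, 2, 3, 1, 5 for Mir6236 and 2, 4, 3, 5, 1 for Gm26917. The GC slope of the transgenic libraries ran in a like order, from 0.27 in transgenic 1 to -0.06 in transgenic 6. The control libraries did not share this order. Control 4, highest for Lars2, Gm15564, CT010467.1 and Mir6236, had the lowest slope (-0.22). Control 2, highest for Gm26917, had the highest control slope (-0.06). The part of rRNA-derived reads in the Lars2 counts was not tested, because the deposited counts do not place reads along the gene.

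**Figure D5:**
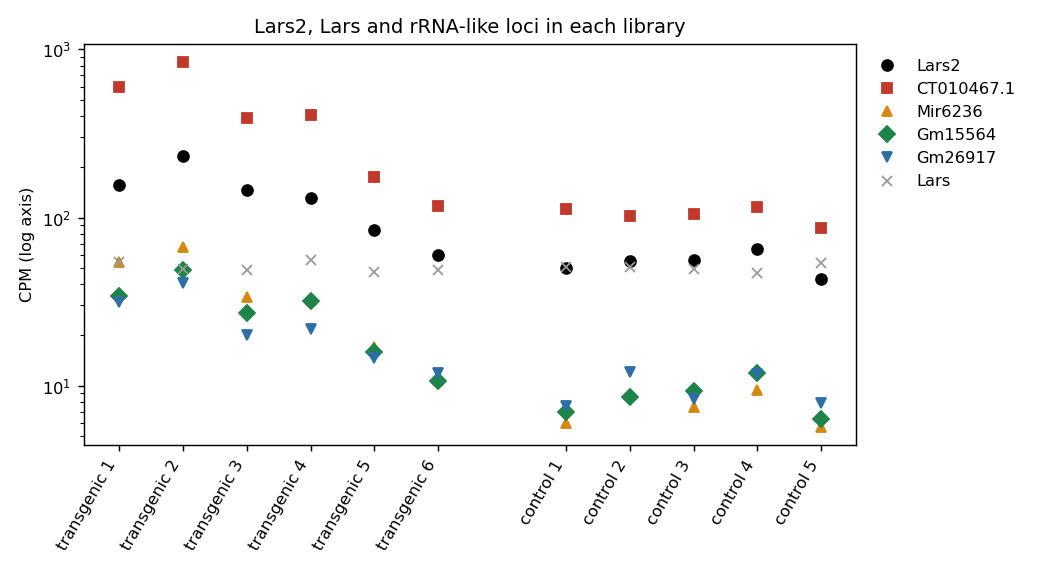
CPM (log axis) of Lars2, its cytosolic counterpart Lars and 4 rRNA-like loci in each of the 11 libraries. Lars2 and the loci are highest in transgenic 2 and lowest among transgenic libraries in transgenic 6, whereas Lars stays between 46.7 and 55.9 CPM.

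Partners of the cytosolic enzymes were described by lists from the same pathway. Of the 7 members that belong to the multisynthetase complex (Eprs, Iars, Lars, Qars, Rars, Kars, Dars), only Dars was called (14.3%). Among all genes tested 17.9% were called. The median log2 fold change of the 7 was 0.01. Of the complex's 3 scaffold proteins Aimp1, which binds transfer RNA, was higher at 43.6, 42.8, 42.3, 44.3, 39.7 and 36.5 CPM in transgenic and 36.4, 35.8, 37.1, 36.5 and 36.7 CPM in control libraries (log2 fold change 0.19, SE 0.05, edgeR adjusted p = 0.0345). Transgenic 6 lay within the control range. Aimp1 has 37.5% GC, and its log2 fold change was 0.68 with the GC trend removed (edgeR adjusted p = 0.0314), a shift larger than that of any synthetase. With that step it measured 60.2, 58.4, 52.4, 50.6, 39.9 and 32.8 CPM in transgenic libraries 1 to 6. Control libraries 1 to 5 then stood at 32.1, 32.2, 29.5, 28.5 and 29.5 CPM. These transgenic values fall in the order of the libraries' GC slopes. The change thus grew with the removal of the trend, and the part of that step in it was not tested. Either call was kept in 3 of 11 fits and lost without any of transgenic 1 to 4 or control 1, 3, 4 or 5. Exons of Aimp1 overlap Tbck on the opposite strand. The other scaffolds had 0.14 (Aimp2, edgeR adjusted p = 0.237) and -0.17 (Eef1e1, 0.16). Aimp1 was thus the only call among the 3 scaffolds (33.3%).

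Elongation factors receive the charged transfer RNA and move the ribosome along the message. Of 6 cytosolic elongation factors 3 were called higher: Eef2, the translocase (log2 fold change 0.19, edgeR adjusted p = 0.0376), Eef1b2 (0.17, 0.0369) and Eef1d (0.17, 0.0429), both exchange factors of the eEF1 complex. The 6 had a median of 0.16, against 0.01 over all genes tested, of which 7.41% were called higher. With the GC trend removed Eef1b2 alone passed (0.26, edgeR adjusted p = 0.0314), and Eef2 had 0.02. Of 5 genes for proofreading and related functions, Dtd1, a deacylase that clears D-amino acids from transfer RNA, was higher (0.20, edgeR adjusted p = 0.0266) with separate groups, 46.0 to 53.2 against 39.1 to 44.8 CPM, and none passed with the GC trend removed. Dtd1 was the only call of the 5 (20%), against 17.9% of all genes tested. Of all genes tested 3.04% were separate and higher.

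On the mitochondrial side, 3 of 13 genes that mature or modify mitochondrial transfer RNA were called (23.1%), against 17.9% of all genes tested. Gtpbp3, which modifies the wobble base, and Hsd17b10, a subunit of mitochondrial RNase P, were higher (both 0.26, edgeR adjusted p = 0.025 and 0.027), and Trnt1, which adds the CCA end that every synthetase needs, was lower (-0.32, edgeR adjusted p = 0.0175). None passed with the GC trend removed, where Trnt1 had 0.00067. None of 9 mitochondrial translation factors passed in edgeR on the counts as deposited, and their median was 0.08. At an unadjusted p under 0.05 edgeR counted 4 of them, beside 5996 of all 17293 genes. Mtif3 alone of the 9 had separate groups, 13.6 to 15.5 CPM in transgenic and 12.5 to 13.5 CPM in control libraries (0.13, edgeR adjusted p = 0.135). Trnt1 lost its call only without control 4 (edgeR adjusted p = 0.0501), and the other calls among the elongation, proofreading and maturation genes were each lost without 5 to 8 of the libraries transgenic 1 to 4 and control 1, 3, 4 and 5.

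Of the 12 synthetases listed as ATF4 targets, Aars and Sars were called higher (16.7%), with a median log2 fold change of 0.04. Of the 7 cytosolic or bifunctional members outside that list, Dars was called lower (14.3%), with a median of 0.11. Among all genes tested 17.9% were called, 7.41% higher and 10.5% lower. With the GC trend removed neither list had a call, and the medians were 0.02 and 0.11. Values are given for 3 of the 4 members with the element: Yars had 0.13 (edgeR adjusted p = 0.0716), Iars 0.0050 (0.952) and Tars -0.07 (0.457). Of 20 other ATF4 targets 5 were called higher, with a median of 0.14: Atf4 itself (0.22, edgeR adjusted p = 0.0178), Phgdh, the first enzyme of serine synthesis (0.36, 0.0228), Atf5 (0.32, 0.032), Slc3a2, the heavy chain of amino acid transporters (0.20, 0.0264), and Shmt2, which makes glycine from serine in mitochondria (0.21, 0.0487). These 5 were 25% of the list, against 7.41% of all genes called higher. The list's median GC content was 54.6%. Over all tested genes the median log2 fold change was 0.09 at 50 to 55% GC and 0.18 at 55% and over. Atf4 measured 118, 120, 115, 103, 110 and 108 CPM in transgenic and 95.3, 98.2, 104.0, 91.3 and 91.9 CPM in control libraries, where only transgenic 4 lay below the highest control library. None of the 5 passed with the GC trend removed, when the list's median was 0.08 (2 of 20 at an unadjusted p under 0.05), and Atf4 had 0.08. Atf4 lost its call only without control 4 (edgeR adjusted p = 0.0514). Phgdh lost it without transgenic 3 or control 1, 3 or 5, Atf5 without transgenic 2 or 3 or control 3, 4 or 5, Slc3a2 without transgenic 1 or 2 or control 1, 4 or 5, and Shmt2 without any library but transgenic 6. Of the 4 eIF2 alpha kinases none was called in edgeR, with a median of 0.03. At an unadjusted p under 0.05 edgeR counted 2 of them, beside 5996 of all 17293 genes. The kinases were split, with 2 positive and 2 negative. Eif2ak3 had separate groups, 24.9 to 28.6 CPM in transgenic and 22.9 to 24.7 CPM in control libraries (0.13, edgeR adjusted p = 0.0958). Eif2ak2 had -0.23 (edgeR adjusted p = 0.124). Among all tested genes 3.04% were separate and higher.

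The authors' deposited table of genes higher in transgenic mice holds 8 members (Aars, Farsa, Sars, Vars, Yars, Fars2, Lars2 and Sars2), and their deposited table of lower genes holds 3 (Dars, Mars2 and Nars2). Of the genes tested here, 1780 (10.3%) are in their table of higher genes and 2014 (11.6%) in that of lower genes. All 7 members called here are among them, with the same directions. In the authors' deposited tables Lars2 has a log2 fold change of 1.26 (adjusted p = 0.000503) and Mars2 one of -0.59 (adjusted p = 3.65e-05).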

How the data were processed

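RNA of dissected hippocampal CA1 (6 transgenic and 5 control libraries) was polyA-selected and sequenced, per the labels' protocols. Per the submitters' processing notes reads were handled with STAR 2.5.2b, Subread 1.5.1 and its featureCounts, and FastQC 0.11.5, on build mm10. No label records how these were set. The authors deposited raw whole-number counts per Ensembl gene for each library (14263784 to 36898689 in all), which limit precision most for the low mitochondrial members. The authors also deposited tables of log2 fold changes with adjusted p-values for genes they called, per the file headers, with a normalised signal per library that equals the counts divided by 1 size factor (largest relative deviation 4.9e-07).

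Groups came from the sample titles. Counts were tested with edgeR 4.0.16 in R 4.3.3 (TMM scaling, filterByExpr by group, quasi-likelihood F test, Benjamini-Hochberg adjustment over 17293 genes, calls at an adjusted p under 0.05), with no covariate. For the GC alternative, a lowess curve (span 0.3) of each library's log2 CPM deviation (prior count 2) on the GC content of the longest GENCODE M21 transcript entered the fit as an offset. Other alternatives used limma 3.58.1 (voom with sample weights), DESeq2 1.42.0, other filters, a replicate block, Xist as a covariate and each library left out. The edgeR fit without the GC offset was tested on simulated data with 200 changed genes. Those data held no GC trend between libraries, so that test does not bear on the trend. No 2 libraries of a group agreed within sampling noise (chi-square per degree of freedom 6.27 to 53.4). Tables and promoter matches were made in Python 3.11.15. Promoter sequences are RefSeq's (GRCm38.p6), and 1 of the promoter windows is not reported here.

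The rule for membership contains no measured value, but the members, gene lists and tests were chosen with earlier results of these data known. Values in every library were printed for called members, for Lars2 and for the most and least abundant member of each compartment in control libraries. Genes of the other lists were named where called. The genes printed beyond this rule (members near the threshold, Rars2, Lars, Aimp2, Eef1e1, Mtif3, Eif2ak2, Eif2ak3 and ATF4-element genes that did not pass) were chosen after their values were seen.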

Additional observations from a re-analysis of the deposited data

Results flagged for a closer look

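In each group the highest and the lowest library of every member was compared with its nearest neighbour by Dixon's test. Of 70 groups of values (35 members in 2 groups) 3 had a library set apart from the others, where chance gives about 1 in 20. Farsa measured 41.4 CPM in control 1, with the next control library at 39.5 CPM. Iars measured 61.5 CPM in control 4, with the next at 58.8 CPM. Iars2, whose exons overlap Rab3gap2 on the opposite strand by 2034 bases, measured 63.7 CPM in control 5, the shallowest library, with the next at 58.7 CPM. None of the 3 genes was called between the groups in edgeR on all libraries as deposited.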

How the results depend on the processing

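On all libraries as deposited 1282 genes were called higher and 1812 lower, among them 2 cytosolic or bifunctional members higher and 1 lower, and 3 mitochondrial members higher and 1 lower. DESeq2's test called 1803 genes higher and 2110 lower, with 7 cytosolic members higher and 2 mitochondrial members lower. limma voom with sample weights called 2164 genes higher and 2610 lower, with 8 cytosolic members higher and 2 mitochondrial lower. With no low-count filter 662 genes were higher and 1407 lower, and 0 cytosolic members were higher and 0 lower. A filter of CPM above 1 in 5 libraries gave 1449 genes higher and 1807 lower, with 2 mitochondrial members lower, and Xist as a covariate gave 1657 and 2251 genes, with 5 cytosolic members higher. Removing the GC trend gave 200 genes higher and 142 lower, with 0 cytosolic members higher, 0 lower, 1 mitochondrial higher and 0 lower. Removing GC and length trends gave 200 and 94 genes, with 1 cytosolic member (Eprs) higher, 0 lower, 1 mitochondrial higher and 0 lower. Using DESeq2's size factors within edgeR left each of these counts within 1.5 times its value.

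With replicate number as a block, 2053 genes were called higher and 2541 lower, with 8 cytosolic members higher and 2 mitochondrial members lower. With the block and the GC trend removed 431 genes were higher and 315 lower, with 1 cytosolic or bifunctional member (Kars) higher, 0 lower, 1 mitochondrial higher and 0 lower. The numbers do not pair the samples by any label, and deviations of same-numbered libraries correlated at 0.20, -0.03, -0.19, -0.05 and 0.02 for numbers 1 to 5, with 1 of 5 correlating best with its own number.

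Leaving out 1 library in turn gave 361 to 2132 genes higher and 794 to 2580 lower. Cytosolic members called higher ran from 0 to 8 and lower from 0 to 1, and mitochondrial members higher from 1 to 4 and lower from 1 to 2. The highest counts came without transgenic 6. With the GC trend removed as well the ranges were 0 to 540 and 0 to 402 genes, 0 to 3 and 0 to 0 cytosolic, and 0 to 2 and 0 to 0 mitochondrial members. The median log2 fold change ran from 0.05 to 0.08 (cytosolic and bifunctional) and from 0.01 to 0.06 (mitochondrial), and with the GC trend removed from 0.05 to 0.08 and from -0.0041 to 0.021.

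Dars reversed to 0.092 with the GC trend removed, 0.085 with GC and length trends removed, 0.13 with GC trend and block, and 0.071 to 0.13 in the GC fits that left out 1 library, against -0.22 to -0.16 in those on the counts as deposited. Trnt1 reversed to 0.00067 with the GC trend removed (-0.021 to 0.024 with 1 library left out, against -0.38 to -0.29 as deposited), and Eef2 to -0.0036 only without control 1 with the GC trend removed (up to 0.037 otherwise, against 0.16 to 0.22 as deposited). The GC alternative follows from its construction: it takes from each gene the difference that genes of like GC share. The cause of the other shifts was not tested. Depth limits the low mitochondrial members most.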
